A study of Mus musculus with 6 samples.

Results

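The genes described here are 39 components of the extracellular matrix and of the machinery that makes and crosslinks collagen: fibrillar and other collagens, the collagens, laminins, nidogens and heparan sulfate proteoglycans of basement membranes, fibronectin and matricellular proteins, lysyl oxidases, collagen hydroxylases and the collagen chaperone. They were chosen by function, by gene symbol, with earlier results of these data known. All 39 had a row among the 57010 gene identifiers of the deposited count table. RNA had been sequenced from CT26, a mouse colon carcinoma cell line, carrying a guide against Cdk10 (sgCdk10, 3 libraries) or a control guide (sgControl, 3 libraries). Cdk10 encodes a cyclin-dependent kinase that pairs with cyclin M and is known to phosphorylate the transcription factor ETS2, and the study's title links it to nucleic acid sensing and antitumor immunity. The labels give the cell line, the guide and the replicate number. They do not say whether the cells of a group were a pool or a clone, where the guide cuts, how many guides were used, whether replicates were grown as cultures of their own, or how long the guide had been present. P-values below are therefore measured against the variation among libraries, part or all of which can be technical.

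Collagen chains wind into a helix in the endoplasmic reticulum, where prolyl 4-hydroxylases modify prolines that stabilise the helix, lysyl hydroxylases modify lysines that later serve in crosslinks, and the chaperone HSP47 binds the folded molecule. Outside the cell, lysyl oxidases oxidise lysines so that neighbouring molecules become covalently joined. Basement membranes are sheets built of laminin and type IV collagen networks, joined by nidogen and perlecan, while fibronectin and the fibrillar collagens form the interstitial matrix.

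Libraries held 17532202 to 19258309 counts, so that 3 counts, taken as the floor of detection, corresponded to 0.156 to 0.171 CPM (counts per 1000000 of the scaled library total). Floors cover counting error only. Cdk10 mRNA was at 11.3, 12.9 and 10.5 CPM in the sgCdk10 libraries, against 21.5, 19.5 and 20.1 CPM in the sgControl libraries (log2 fold change -0.82, SE 0.08; edgeR adjusted p = 8.4e-09), which neither shows the edit at the guide's site nor measures the protein. The first principal component separated the groups while sgControl replicate 3 lay alone along the second. Set against its group's other libraries, its counts gave a chi-square of 4.30 and 4.36 per degree of freedom, and the remaining pairs of replicates gave 1.53 to 1.61. Results that rest on this library are given with and without it.

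The markers of cell identity were mixed. Of 12 epithelial markers Epcam and Cldn4 had 0 counts in all 6 libraries and Cdh1, the gene of E-cadherin, at most 1, whereas Krt18 averaged 37.5 CPM in sgCdk10 and 24.0 CPM in sgControl. Among 12 markers of stromal fibroblasts, Acta2, Thy1 and Lum had 0 counts in all 6 libraries. Pdgfra, a growth factor receptor gene, had 14.3, 12.8 and 14.7 CPM in sgCdk10, against 8.81, 9.50 and 8.77 CPM in sgControl (1.54-fold; edgeR adjusted p = 2.2e-06), a larger fold than that of any of the 30 matrix genes tested except Plod2, P4ha2 and P4ha1. Pdpn, the podoplanin gene, averaged 21.0 CPM in sgCdk10 and 15.9 CPM in sgControl (1.32-fold; edgeR adjusted p = 7.3e-05). Pdgfrb, at 55.0 CPM in sgCdk10 and 51.2 CPM in sgControl, S100a4 and Des were not called (edgeR adjusted p = 0.0671, 0.113 and 0.464). The stromal list summed to 94.5 to 102 CPM in sgCdk10 and 84.6 to 89.1 CPM in sgControl, with 2 of its 5 tested genes called higher and 0 lower, where 22.1% of all 13442 tested genes were called higher and 20.4% lower. The epithelial list summed to 59.3 to 60.2 CPM in sgCdk10 and 37.7 to 42.0 CPM in sgControl, with Krt18 and Krt20 called higher and Muc2 lower among 4 tested genes. The 10 leukocyte markers summed to 13.6 to 14.7 CPM in sgCdk10 and 9.54 to 10.01 CPM in sgControl, with Ptprc at 2 counts or fewer. Most of this sum was Cd68, which averaged 13.0 CPM in sgCdk10 and 8.75 CPM in sgControl (1.49-fold; edgeR adjusted p = 5.2e-06) and was the 1 gene called of 2 tested. The 7 endothelial markers summed to 0.773 to 0.987 CPM in sgCdk10 and 0.828 to 1.13 CPM in sgControl, with Pecam1 at 2 counts or fewer and 0 of 1 tested gene called. Whether these differences have a part in the matrix results was not tested.

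Promoter sequence is shown for 2 sets of genes on which the results turn: the prolyl hydroxylase genes P4ha1 and P4ha2, which with Plod2 rose most of the 39 genes, and the divergent pair Col4a1 and Col4a2, which differed by nearly the same amount. The windows are from RefSeq on GRCm38.p6 and run from 250 bases before to 50 bases after a transcript start. They are written 5′ to 3′ on the strand of the gene. For P4ha1 (chr10:59323046-59323345, plus strand) and P4ha2 (chr11:54100674-54100973, plus strand) capitals mark ACGTG or GCGTG on either strand, the core letters to which hypoxia-inducible factors bind. For Col4a1 (chr8:11312777-11313076, minus strand) and Col4a2 (chr8:11312555-11312854, plus strand) capitals mark the GC box GGGCGG on either strand, to which Sp1 and related factors bind.
P4ha1: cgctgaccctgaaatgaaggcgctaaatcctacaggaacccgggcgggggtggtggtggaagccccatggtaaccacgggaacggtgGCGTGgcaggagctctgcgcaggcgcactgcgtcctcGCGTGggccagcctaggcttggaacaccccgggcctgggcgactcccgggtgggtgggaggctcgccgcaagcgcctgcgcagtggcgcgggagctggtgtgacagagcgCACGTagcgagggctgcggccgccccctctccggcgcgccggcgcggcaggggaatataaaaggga
P4ha2: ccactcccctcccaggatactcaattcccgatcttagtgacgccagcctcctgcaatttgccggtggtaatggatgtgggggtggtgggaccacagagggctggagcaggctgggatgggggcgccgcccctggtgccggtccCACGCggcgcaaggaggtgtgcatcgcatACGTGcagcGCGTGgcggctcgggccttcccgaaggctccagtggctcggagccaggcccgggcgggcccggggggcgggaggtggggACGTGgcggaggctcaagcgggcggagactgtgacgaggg
Col4a1: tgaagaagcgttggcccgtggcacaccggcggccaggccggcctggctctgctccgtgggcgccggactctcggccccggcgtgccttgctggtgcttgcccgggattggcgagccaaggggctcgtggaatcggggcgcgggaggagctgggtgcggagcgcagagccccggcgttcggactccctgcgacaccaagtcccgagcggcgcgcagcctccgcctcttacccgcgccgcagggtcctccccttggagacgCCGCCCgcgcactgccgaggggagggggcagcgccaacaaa
Col4a2: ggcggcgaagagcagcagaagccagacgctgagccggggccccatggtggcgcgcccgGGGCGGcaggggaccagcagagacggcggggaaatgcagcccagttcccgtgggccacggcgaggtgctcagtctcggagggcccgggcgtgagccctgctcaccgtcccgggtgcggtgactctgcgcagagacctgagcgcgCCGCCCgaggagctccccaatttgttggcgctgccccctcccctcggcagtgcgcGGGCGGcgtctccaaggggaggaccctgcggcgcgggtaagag
The P4ha1 window held 3 matches to the hypoxia-inducible factor core and the P4ha2 window 4. Among all 32851 promoter windows of this length 43.8% held at least 1 match, 8.93% at least 3 and 3.86% at least 4. A window of Plod3, a lysyl hydroxylase gene that was not called, also held 4. The GC box was found once in the Col4a1 window and 3 times in the Col4a2 window, and 35.7% of all windows held at least 1 and 10.7% at least 3. Each pair also held the other motif, not marked in capitals. The P4ha1 window held 2 GC boxes and the P4ha2 window 4, and the Col4a1 and Col4a2 windows held 1 core each. The start sites of Col4a1 and Col4a2 lay on opposite strands, and their windows shared 78 bases, in which 1 GC box was seen from both sides. The core and the GC box can share end letters, and the palindrome CACGTG would count on each strand. In all, 26 of the 39 genes had at least 1 window, 31 windows together, of which 15 held the core and 22 the GC box. Plod2 was among the genes without a window. These matches describe letters only and do not show that a factor binds.

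Most matrix genes that were expressed were higher in sgCdk10, by small amounts. Of the 39 genes, 30 passed the filter on low counts and were tested. Among these 22 rose and 2 fell, where edgeR's quasi-likelihood test called 22.1% of all 13442 tested genes higher and 20.4% lower (Benjamini-Hochberg adjusted, threshold 0.05). The median log2 fold change was 0.28 over the 30 genes, against -0.003 over all tested genes. The genes were chosen with earlier results of these data known, so this comparison with all tested genes is a description only. Without sgControl replicate 3 the median was 0.235 over the 30 genes and -0.005 over all genes tested in that fit. In 24 of the 30 every library of one group lay beyond every library of the other, where this held for 51.3% of all tested genes. In bulk RNA, a different share of cells of some type and a different amount of RNA per cell cannot be told apart. Well expressed genes were called more often in general: at 20 CPM or more on average, 28.0% of 7578 genes were called higher and 27.0% lower. Of the 24 matrix genes at that level 22 rose, 1 fell and 1 was not called.

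Together the 39 genes held 0.821, 0.821 and 0.808% of all counts in sgCdk10, against 0.689, 0.685 and 0.653% in sgControl. Fn1 and Col1a2 alone held 40.8 to 41.4% of these counts in sgCdk10 and 41.6 to 42.2% in sgControl. The 3 sgCdk10 libraries therefore all lay above the 3 sgControl libraries in summed matrix counts, while the share of the sum taken by Fn1 and Col1a2 together differed by less than 2 percentage points between any libraries. The share of Fn1 alone was 23.7, 24.0 and 23.3% in sgCdk10, against 21.8, 22.2 and 22.5% in sgControl, higher in all sgCdk10 libraries.

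**Figure D1:**
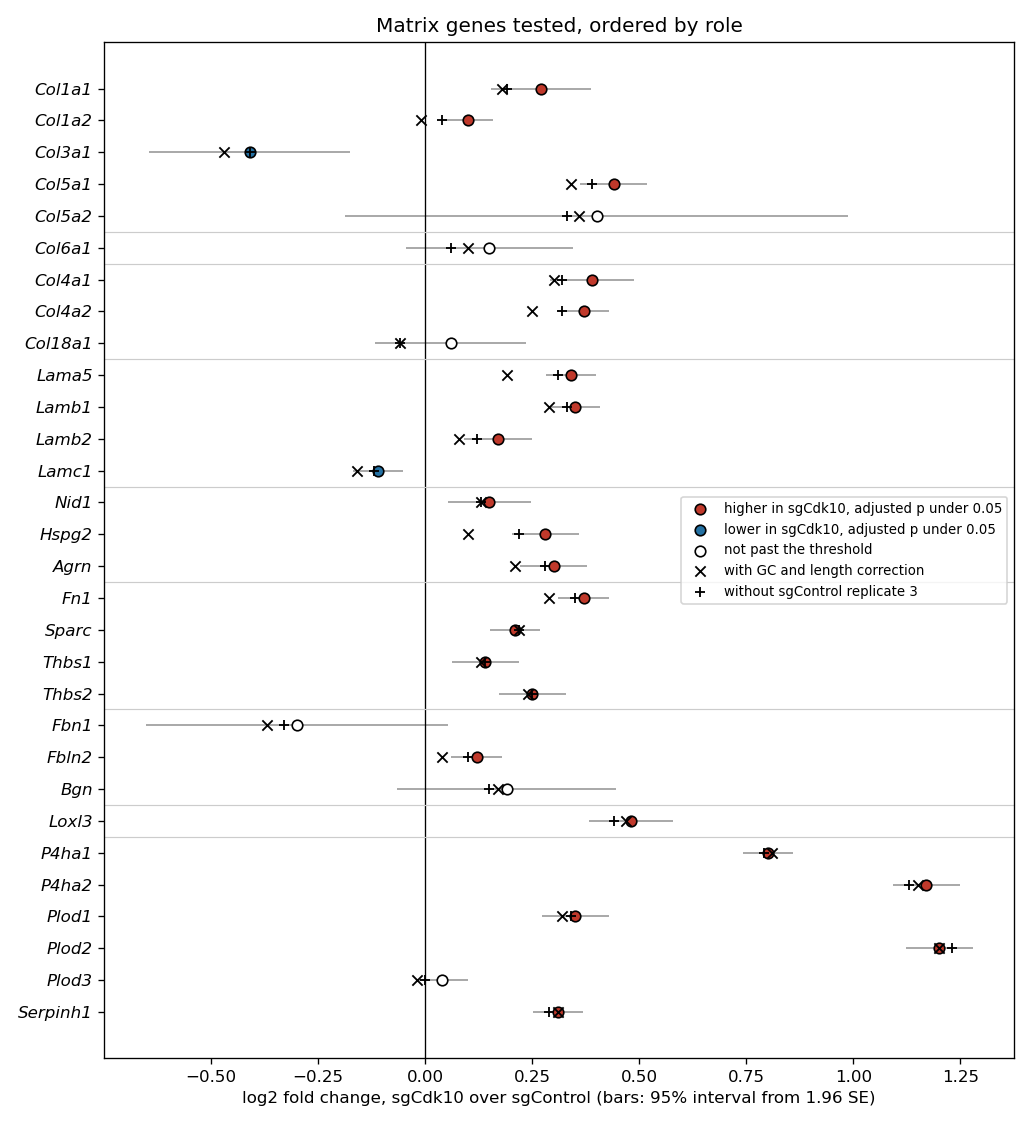
Log2 fold change (sgCdk10 over sgControl, x axis) of the 30 matrix genes tested, ordered by role (y axis). Filled circles passed edgeR's adjusted p threshold of 0.05, open circles did not, bars are 95% intervals (normal approximation), crosses give the value with a correction for GC content and length and plus signs the value without sgControl replicate 3. Plod2 (1.20), P4ha2 (1.17) and P4ha1 (0.80) lie farthest to the right, and Col3a1 (-0.41) and Lamc1 (-0.11) are the called genes left of 0.

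Enzymes and the chaperone of collagen synthesis held the largest differences. Of 6 genes 5 rose and 0 fell, where 22.1% of all tested genes were called higher and 20.4% lower. The median of the 6 genes was 1.49-fold. Plod2, the lysyl hydroxylase that modifies the ends of collagen molecules, had 100, 101 and 104 CPM in sgCdk10, against 42.6, 43.6 and 46.6 CPM in sgControl. Its log2 fold change was 1.20 (SE 0.04; edgeR adjusted p = 4.7e-17), which ranked 70 among the 13442 tested genes, from the highest down. P4ha2, a catalytic subunit of prolyl 4-hydroxylase, had 99.9, 100 and 98.2 CPM in sgCdk10, against 46.0, 44.3 and 42.0 CPM in sgControl. Its log2 fold change was 1.17 (SE 0.04; edgeR adjusted p = 5.8e-17). For these 2 genes the level in all sgCdk10 libraries was over 2-fold that in any sgControl library. Of all tested genes, 0.975% were called higher by edgeR with an estimated rise of at least 2-fold.

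P4ha1, the other widely expressed catalytic subunit of the enzyme, had 163, 162 and 169 CPM in sgCdk10, against 95.5, 94.2 and 95.2 CPM in sgControl. Its log2 fold change was 0.80 (SE 0.03; edgeR adjusted p = 1.0e-15). With Plod2 and P4ha2 it was 1 of 3 matrix genes that rose by at least 1.5-fold, as 3.53% of all tested genes did. The log2 fold changes of these 3 genes stayed between 0.78 and 1.23 in all alternatives run. All 3 are known targets of hypoxia-inducible factors. No list of such targets was examined, and whether these factors had a part was not tested. Plod2 lies at chr9:92542223-92608428 on the plus strand of GRCm38, P4ha2 at chr11:54100095-54131665 and P4ha1 at chr10:59323296-59373304, both on the plus strand.

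Plod1, a lysyl hydroxylase that acts on the helical part of collagen, had 103, 95.7 and 100 CPM in sgCdk10, against 79.2, 77.8 and 76.9 CPM in sgControl (log2 fold change 0.35, SE 0.04; edgeR adjusted p = 3.5e-08). Serpinh1, which encodes HSP47, had 755, 752 and 777 CPM in sgCdk10, against 616, 625 and 608 CPM in sgControl (log2 fold change 0.31, SE 0.03; edgeR adjusted p = 9.1e-10). In both genes the groups were apart in all libraries. Plod3, which also adds sugars to hydroxylysine, had 246, 238 and 240 CPM in sgCdk10 and 246, 237 and 222 CPM in sgControl. Its groups overlapped, and its log2 fold change of 0.04 had a 95% interval (normal approximation) from -0.03 to 0.10 (edgeR adjusted p = 0.371). Exons of Plod3 share 529 of 4519 bases with Znhit1 on the opposite strand, so part of its count could not be assigned with certainty.

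**Figure D2:**
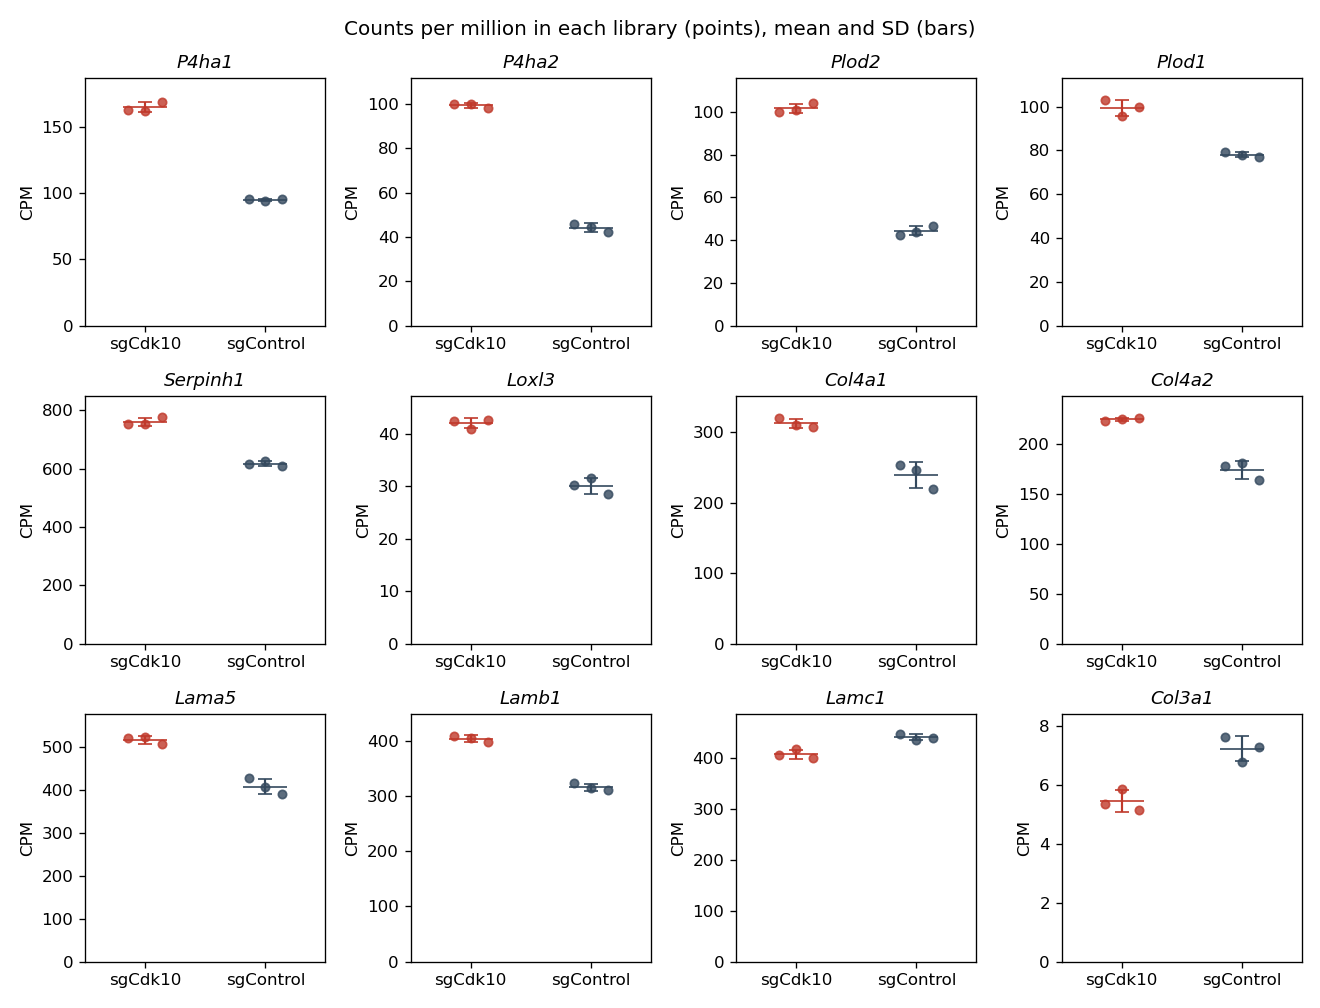
CPM (y axis, from 0) of 12 matrix genes in each of the 3 sgCdk10 and 3 sgControl libraries (points), with the mean and SD of each group (bars). The sgCdk10 libraries lie above all sgControl libraries in 10 genes and below them in Lamc1 and Col3a1.

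Of the 4 lysyl oxidases, 1 was tested and rose. Loxl3 had 42.5, 40.9 and 42.6 CPM in sgCdk10, against 30.2, 31.6 and 28.5 CPM in sgControl, with no overlap between the groups. Its log2 fold change was 0.48 (SE 0.05; edgeR adjusted p = 4.7e-08). Loxl3 lies at chr6:83034173-83052562 on the plus strand of GRCm38, and 535 of its 4603 exon bases are shared with Htra2 on the opposite strand. Lox, the founding member of the family, had 0 or 1 count in every library. Loxl1 had 4, 4 and 3 counts in sgCdk10 and 2, 7 and 2 in sgControl, and Loxl2 had 3, 4 and 2 counts in sgCdk10 and 0, 0 and 2 in sgControl. At this depth no difference was detectable for these 3 genes. Loxl4, which is not among the 39 genes and was looked up after its values were seen, was the most abundant of the family: it had 132, 137 and 133 CPM in sgCdk10, against 155, 150 and 144 CPM in sgControl, and fell by 0.16 on the log2 scale (edgeR adjusted p = 0.000399). Per length Loxl4 was at 31.7 RPKM (CPM per kilobase of exon) in sgCdk10 and 35.5 RPKM in sgControl, and Loxl3 at 9.13 RPKM in sgCdk10 and 6.53 RPKM in sgControl.

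The fibrillar collagens differed among themselves. Of 5 tested genes 3 rose and 1 fell, where 22.1% of all tested genes were called higher and 20.4% lower. Col5a1, a chain of the type V collagen that starts fibrils, had 151, 155 and 152 CPM in sgCdk10, against 115, 117 and 105 CPM in sgControl (log2 fold change 0.44, SE 0.04; edgeR adjusted p = 4.9e-10). Col1a1, the α1 chain of type I collagen, had 78.4, 79.3 and 79.5 CPM in sgCdk10, against 67.9, 70.9 and 57.6 CPM in sgControl. Its log2 fold change (0.27, SE 0.06; edgeR adjusted p = 0.00406) was 0.19 without sgControl replicate 3, the lowest library, and 0.18 with the correction for GC content and length. Col3a1, the chain of type III collagen, had 5.36, 5.87 and 5.14 CPM in sgCdk10, against 7.62, 6.79 and 7.28 CPM in sgControl. It was lower in all sgCdk10 libraries than in any sgControl library (log2 fold change -0.41, SE 0.12; edgeR adjusted p = 0.00581), a call that DESeq2 did not make (adjusted p = 0.0506).

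Col1a2, the α2 chain of type I collagen, was the second most abundant of the 39 genes by counts. It had 1437, 1429 and 1414 CPM in sgCdk10, against 1381, 1379 and 1245 CPM in sgControl. The groups did not overlap, but sgControl replicate 3 lay well below its group, and the log2 fold change (0.10, SE 0.03; edgeR adjusted p = 0.0284) was 0.04 without it (edgeR adjusted p = 0.0518) and was -0.01 with the GC and length correction. Col5a2 had 1.27, 0.683 and 1.14 CPM in sgCdk10 and 0.903, 0.735 and 0.717 CPM in sgControl, with overlapping groups (log2 fold change 0.40, SE 0.30; edgeR adjusted p = 0.309). Col12a1, a collagen on the surface of fibrils, had 2, 5 and 4 counts in sgCdk10 and 8, 7 and 7 counts in sgControl and was not tested. Of type VI collagen, which forms beaded filaments, Col6a1 had 8.23, 9.85 and 10.4 CPM in sgCdk10 and 9.03, 9.11 and 7.61 CPM in sgControl (log2 fold change 0.15, 95% interval -0.06 to 0.35; edgeR adjusted p = 0.277). Its partner Col6a2 had 0 counts in the sgCdk10 libraries and 0, 1 and 1 in the sgControl libraries.

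Type IV collagen, the network former of basement membranes, was higher in sgCdk10 in both of its main chains. Col4a1 had 320, 310 and 308 CPM in sgCdk10, against 253, 246 and 219 CPM in sgControl (log2 fold change 0.39, SE 0.05; edgeR adjusted p = 4.2e-05). Col4a2 had 223, 225 and 226 CPM in sgCdk10, against 178, 181 and 164 CPM in sgControl (log2 fold change 0.37, SE 0.03; edgeR adjusted p = 4.7e-09). In both genes sgControl replicate 3 was the lowest library, and without it both log2 fold changes were 0.32. The genes lie head to head on chromosome 8 of GRCm38, Col4a1 at chr8:11198423-11312826 on the minus strand and Col4a2 at chr8:11312805-11449287 on the plus strand, and their exons share 22 bases. Col18a1, whose product carries the endostatin fragment, had 18.8, 19.8 and 19.2 CPM in sgCdk10 and 19.8, 20.5 and 15.2 CPM in sgControl. Its groups overlapped (log2 fold change 0.06, 95% interval -0.11 to 0.24; edgeR adjusted p = 0.602), and its sign turned to -0.06 without sgControl replicate 3 and with the GC and length correction.

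Laminin chains did not move together. Laminins are trimers of an α, a β and a γ chain. Lama5, the α5 chain, had 521, 524 and 506 CPM in sgCdk10, against 427, 406 and 391 CPM in sgControl (log2 fold change 0.34, SE 0.03; edgeR adjusted p = 2.2e-09). Lamb1, the β1 chain, had 409, 404 and 397 CPM in sgCdk10, against 323, 314 and 310 CPM in sgControl (log2 fold change 0.35, SE 0.03; edgeR adjusted p = 2.5e-10). Lamc1, the γ1 chain that both can join, had 406, 418 and 401 CPM in sgCdk10, against 448, 436 and 440 CPM in sgControl. It was lower in all sgCdk10 libraries, at -0.11 on the log2 scale (edgeR adjusted p = 0.00163, SE 0.03), and lower in each alternative run, where the log2 fold change ranged from -0.16 to -0.10. Lamb2, the β2 chain, averaged 94.9 ± 0.942 CPM in sgCdk10 and 84.2 ± 6.04 CPM in sgControl (SD, n = 3 each; log2 fold change 0.17; edgeR adjusted p = 0.00203). With the GC and length correction the log2 fold change was 0.19 for Lama5, 0.29 for Lamb1 and 0.08 for Lamb2, and each was still called.

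Genes that join the basement membrane networks were slightly higher. Agrn, the proteoglycan agrin, had 88.8, 90.6 and 89.8 CPM in sgCdk10, against 70.9, 76.1 and 72.0 CPM in sgControl (log2 fold change 0.30, SE 0.04; edgeR adjusted p = 7.0e-07). Hspg2, which encodes perlecan, had 291, 297 and 279 CPM in sgCdk10, against 248, 246 and 219 CPM in sgControl. Its log2 fold change (0.28, SE 0.04; edgeR adjusted p = 0.000205) was 0.10 with the GC and length correction and 0.22 without sgControl replicate 3. Nid1, the linker nidogen, averaged 51.2 ± 0.400 CPM in sgCdk10 and 46.1 ± 1.92 CPM in sgControl (SD, n = 3 each; log2 fold change 0.15; edgeR adjusted p = 0.00907), a call that DESeq2 did not make (adjusted p = 0.0652). Nid2 had 2, 1 and 1 counts in sgCdk10 and 0 counts in the sgControl libraries, under the floor.

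Fibronectin and the matricellular genes among the 39 that were tested all rose, 4 of 4. Over all tested genes 22.1% were called higher, and 28.0% of those at 20 CPM or more. Fn1, the fibronectin gene and the most abundant of the 39 by counts, had 1947, 1967 and 1887 CPM in sgCdk10, against 1502, 1526 and 1469 CPM in sgControl. Every sgCdk10 library was above every sgControl library (log2 fold change 0.37, SE 0.03; edgeR adjusted p = 3.6e-11). Sparc, a collagen-binding protein, averaged 283 ± 5.28 CPM in sgCdk10 and 244 ± 5.23 CPM in sgControl (SD, n = 3 each; log2 fold change 0.21; edgeR adjusted p = 1.7e-06). The thrombospondin gene Thbs2 averaged 87.2 ± 4.90 CPM in sgCdk10 and 73.2 ± 0.524 CPM in sgControl (SD, n = 3 each; log2 fold change 0.25; edgeR adjusted p = 1.9e-05). Thbs1 averaged 64.8 ± 2.25 CPM in sgCdk10 and 59.0 ± 1.09 CPM in sgControl (SD, n = 3 each; log2 fold change 0.14; edgeR adjusted p = 0.0111), a call that DESeq2 did not make (adjusted p = 0.0668). Thbs3, a thrombospondin gene outside the 39, was not called (edgeR adjusted p = 0.444). It averaged 29.0 CPM in sgCdk10 and 30.1 CPM in sgControl. Postn and Tnc, which encode periostin and tenascin C, had 1, 0 and 0 counts in sgCdk10 and 0 counts in the sgControl libraries.

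Of the microfibril proteins and small leucine-rich proteoglycans, 1 of 3 tested genes was called, where 42.5% of all tested genes were called in either direction. Fbln2, the fibulin that binds microfibrils and basement membranes, averaged 193 ± 4.65 CPM in sgCdk10 and 178 ± 4.86 CPM in sgControl (SD, n = 3 each; log2 fold change 0.12; edgeR adjusted p = 0.00425), and was not called with the GC and length correction (adjusted p = 0.197). Fbn1, the fibrillin gene, had 3.15, 2.11 and 2.70 CPM in sgCdk10 and 3.73, 2.94 and 3.15 CPM in sgControl, with overlapping groups (edgeR adjusted p = 0.187). Bgn, which encodes biglycan, averaged 5.48 ± 0.116 CPM in sgCdk10 and 4.80 ± 0.488 CPM in sgControl (SD, n = 3 each; edgeR adjusted p = 0.239). Dcn, which encodes decorin, had 7, 7 and 1 counts in sgCdk10 and 0, 3 and 2 in sgControl and was not tested.

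Levels were set side by side per length, as RPKM over merged exons. Serpinh1 was the highest in both groups, at 312 ± 5.52 RPKM in sgCdk10 and 252 ± 3.40 RPKM in sgControl (SD, n = 3 each). Fn1 followed at 165 RPKM in sgCdk10 and 128 RPKM in sgControl. Col1a2 was at 115 RPKM in sgCdk10 and 107 RPKM in sgControl, and Sparc at 74.7 RPKM in sgCdk10 and 64.4 RPKM in sgControl. The ranges of these 4 genes did not overlap within a group. Further down, some neighbours in the order could not be separated. In sgCdk10 the ranges of Lamb1 and P4ha1 overlapped, as did those of Thbs2 and Col1a1. In sgControl this held for Lamc1 and Plod3, Col4a1 and Lamb1, Fbln2 and Col4a2, Lamb2 and Col5a1, Thbs2 and Col1a1, Col1a1 and Thbs1, Plod2 and Agrn, P4ha2 and Nid1, Nid1 and Loxl3, and Bgn and Col3a1. P4ha1 was at 40.1 RPKM in sgCdk10 and 23.1 RPKM in sgControl. Plod2 was at 18.9 RPKM in sgCdk10 and 8.21 RPKM in sgControl, and ranked 14 of 30 in sgCdk10 and 20 of 30 in sgControl. The low end was formed by Bgn, Col3a1, Fbn1 and Col5a2, all under 1 RPKM in both groups.

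**Figure D3:**
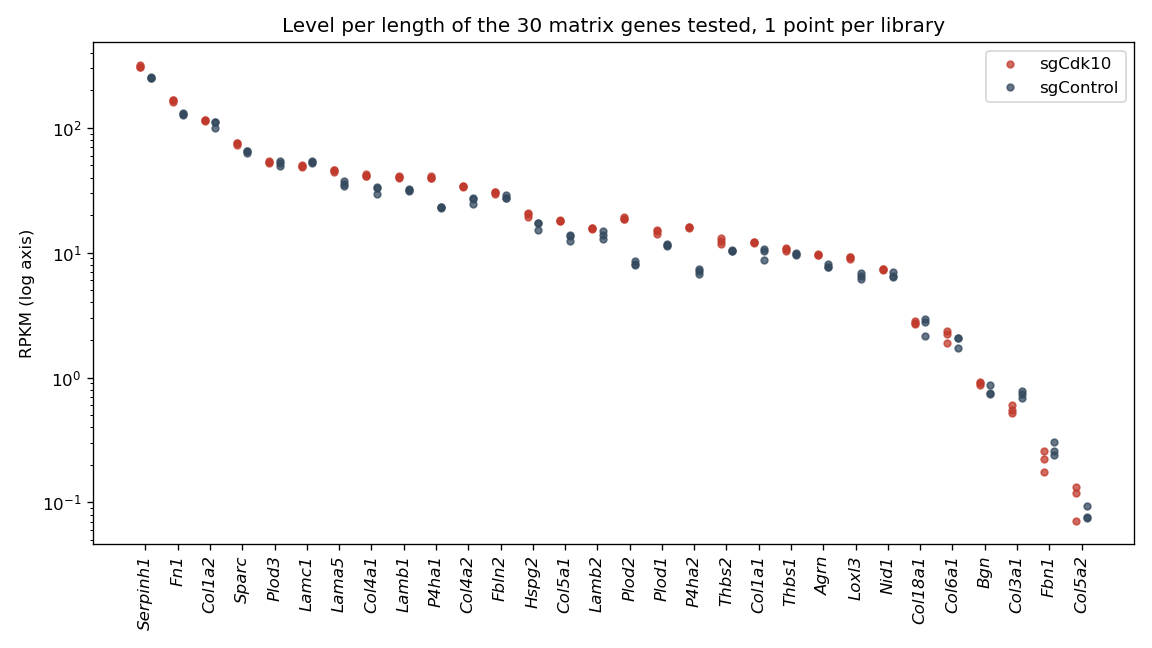
Level per length (RPKM, log axis) of the 30 matrix genes tested, 1 point per library, sgCdk10 left of sgControl for each gene. Levels run from 312 RPKM for Serpinh1 to 0.108 RPKM for Col5a2 in sgCdk10, and Plod2, P4ha2 and P4ha1 show the widest gaps between the groups.

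Partners of one molecule were not always expressed at similar levels. Type I collagen is usually a trimer in which α1 chains outnumber the α2 chain, yet per length Col1a1 stood at 0.103, 0.105 and 0.106 of Col1a2 in sgCdk10, and at 0.0931, 0.0973 and 0.0875 in sgControl. Col5a1 was at 134, 256 and 150 times Col5a2 in sgCdk10 and at 143, 180 and 166 times in sgControl, ratios that rest on 12 to 23 counts of Col5a2. The ratio of Col4a1 to Col4a2 was close to 1 and overlapped between the groups, at 1.27, 1.22 and 1.21 in sgCdk10 and 1.26, 1.20 and 1.19 in sgControl. Col6a1 to Col6a2, Nid1 to Nid2 and Loxl2 to Lox gave no ratio because a gene was under 3 counts in a library.

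Within the laminins the balance shifted. Lamb1 was at 0.839, 0.806 and 0.826 of Lamc1 in sgCdk10, against 0.602, 0.601 and 0.588 in sgControl. Lama5 was at 0.931, 0.910 and 0.918 of Lamc1 in sgCdk10, against 0.692, 0.676 and 0.645 in sgControl. Among the lysyl hydroxylases Plod2 was at 1.22, 1.32 and 1.31 times Plod1 in sgCdk10, against 0.676, 0.703 and 0.761 times in sgControl. Their order per length was thus inverted, which depends on the merged exon lengths of 5392 bases for Plod2 and 6765 bases for Plod1. In CPM, without division by length, Plod2 had 100, 101 and 104 and Plod1 103, 95.7 and 100 in sgCdk10. Plod3 averaged 3.64 ± 0.0803 times Plod1 in sgCdk10 and 4.51 ± 0.171 times in sgControl (SD, n = 3 each). P4ha1 averaged 2.51 ± 0.0867 times P4ha2 in sgCdk10 and 3.27 ± 0.151 times in sgControl (SD, n = 3 each). Of 10 ratios compared, 8 did not overlap between the groups, where the groups did not overlap in 51.3% of all single genes tested. Ratios of other genes were not computed for comparison, and Lamc1, Lamb1, Plod1 and Col1a1 recur among the pairs, so the ratios are not independent. Each of the 8 had an exact two-sided permutation p = 0.1, the smallest that 3 against 3 libraries allow. Their Benjamini-Hochberg adjusted p was 0.125, so no ratio could pass 0.05 in this design.

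**Figure D4:**
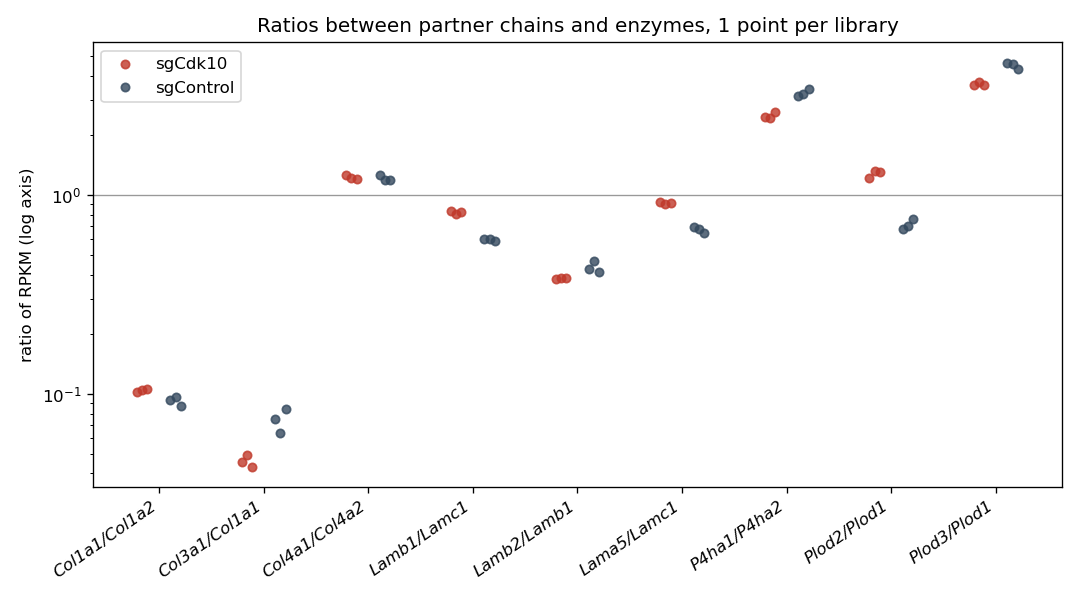
Ratio of RPKM (log axis) between partner chains or related enzymes, 1 point per library, sgCdk10 left of sgControl. Lamb1 to Lamc1, Lama5 to Lamc1 and Plod2 to Plod1 are higher in all sgCdk10 libraries, Col4a1 to Col4a2 overlaps near 1, and the ratio of Col5a1 to Col5a2 is left out because of its scale.

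Other genes of the matrix, listed by function, were examined in the same fit. Of 113 such genes 55 were tested, of which 32 rose and 7 fell, with a median of 1.14-fold. Over all tested genes 22.1% were called higher and 20.4% lower, a background that holds for the counts of each list below. Among 9 other collagen chains tested 6 rose and 0 fell. Col8a1, a short-chain collagen, had 111, 114 and 112 CPM in sgCdk10, against 89.8, 84.0 and 89.8 CPM in sgControl. Col11a2, a fibrillar chain best known from cartilage, had 4.31, 4.67 and 4.21 CPM in sgCdk10, against 1.58, 1.75 and 1.32 CPM in sgControl (2.82-fold; edgeR adjusted p = 1.8e-07), while its partner Col11a1 had 0 counts in every library. Col7a1, the collagen of anchoring fibrils, rose by 0.48, and Col4a5, a further type IV chain, by 0.22 on the log2 scale.

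Of 4 other laminin chains tested 1 rose and 1 fell, with a median log2 fold change of -0.12. Lama3, an α chain, averaged 12.5 ± 1.14 CPM in sgCdk10 and 10.4 ± 0.747 CPM in sgControl (SD, n = 3 each; log2 fold change 0.26; edgeR adjusted p = 0.0206). Of 21 other genes of collagen processing, secretion and crosslinking 14 rose and 4 fell. Tgm2, a transglutaminase that crosslinks matrix proteins, had 20.8, 21.4 and 22.2 CPM in sgCdk10, against 11.3, 10.9 and 11.5 CPM in sgControl (log2 fold change 0.93, SE 0.07; edgeR adjusted p = 1.1e-10). Exons of Tgm2 share 370 of 4608 bases with Rprd1b on the opposite strand, which had up to 1541 counts in a library. Part of the Tgm2 count could therefore not be assigned with certainty. Pxdn, the peroxidase that forms sulfilimine bonds in type IV collagen, rose by 0.44, Sec23a, a coat protein of vesicles that carry procollagen, by 0.38, and Bmp1, a procollagen proteinase, by 0.31 on the log2 scale.

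Of 21 other matrix glycoproteins and elastic fibre genes 11 rose and 2 fell. Spp1, which encodes osteopontin, had 2156, 2176 and 2148 CPM in sgCdk10, against 1518, 1517 and 1532 CPM in sgControl (log2 fold change 0.50, SE 0.02; edgeR adjusted p = 2.4e-14). Tinagl1, a basement membrane glycoprotein, had 384, 383 and 394 CPM in sgCdk10, against 276, 276 and 256 CPM in sgControl (log2 fold change 0.52, SE 0.03; edgeR adjusted p = 1.2e-12). Ltbp3 and Ltbp1, which bind latent TGF-β, rose by 0.31 and 0.23 on the log2 scale. Eln, the elastin gene, and Fbn2 had 0 counts in every library.

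Sequence composition moved with part of these results. The 30 tested matrix genes had a median GC content of 53.4% and a median exon length of 6854 bases, against 49.3% and 4003 bases over all tested genes. With a correction for both, 20 of them were called higher and 2 lower, where 21.9% of all tested genes were called higher and 23.2% lower. Their median log2 fold change was 0.199 with the correction, against 0.278 without it. Over all tested genes the median with the correction was -0.010. The largest reductions were those of Hspg2 and Lama5 given above, with GC contents of 60.9% and 59.9%. Plod2, P4ha1, P4ha2 and Loxl3 had 1.20, 0.81, 1.15 and 0.47 on the log2 scale with the correction.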

How the data were processed

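Total RNA libraries from CT26 cells, 3 with a guide against Cdk10 and 3 with a control guide, were made with the VAHTS Universal V6 kit, per the labels' protocols. The authors deposited raw counts per Ensembl gene for all 6 libraries in 1 table. HISAT2 2.2.1, featureCounts 2.0.3, DESeq2 1.40.2 and mm10 are named in the submitters' processing notes. Which annotation release was used, and whether counting used strand, is not given in the sources used here. Whether reads of overlapping genes on opposite strands were told apart is therefore not known. The header names its columns with slashes, and groups and replicate numbers come from the library titles. Symbols, exons and coordinates were taken from GENCODE M21 (GRCm38), which matched 52081 of 57010 identifiers, and the unmatched identifiers carried up to 0.236% of counts. All 39 symbols matched 1 identifier each.

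Counts were filtered with filterByExpr (minimum count 10, minimum total 15), scaled by TMM and tested with edgeR 4.0.16 (quasi-likelihood, robust, group as the only term), adjusted over 13442 genes with a threshold of 0.05. CPM and RPKM use TMM-adjusted totals. Partner ratios were compared by exact permutation tests. The script was tested on simulated counts. The members, gene lists and tests were chosen with earlier results of these data known. All members are named, and of each other list the 4 called genes with the smallest p, except 1 gene that is not reported here. Other genes of those lists, such as markers and partner genes, were named after their values were seen. Alternatives were RLE scaling, DESeq2 1.42.0 in place of edgeR, no filter, a stricter filter (at least 1 CPM in all libraries of sgCdk10 or of sgControl), the replicate number as a block, offsets for GC content of the longest transcript and exon length (loess, span 0.5), and leaving out each library. Leaving 1 library out leaves a group with 2.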

Additional observations from a re-analysis of the deposited data

How the results depend on the processing

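The count of matrix genes called higher was 22 and ranged from 20 to 22 over all alternatives, and the count called lower was 2, except with DESeq2, where it was 1 because Col3a1 missed the threshold. Leaving out 1 library gave 20 to 22 higher and 2 lower, and 4791 to 6056 called genes over all, against 5717. Called genes over all numbered 4179 with DESeq2 and 6069 with the GC and length correction. Cdk10 stayed lower, at -0.90 to -0.75. Signs turned for Col1a2 with the GC and length correction (-0.01), for Col18a1 with it (-0.06) and without sgControl replicate 3 (-0.06), and for Plod3 with it (-0.02) and without sgControl replicate 3 (-0.00); the cause was not tested. Leaving out 1 library gave -0.06 to 0.14 for Col18a1 and -0.00 to 0.07 for Plod3, neither called. Col1a2 also lost its call without any 1 of the sgCdk10 libraries (adjusted p = 0.0693 to 0.0987), and Thbs1 without sgCdk10 replicate 1 (adjusted p = 0.0784). The replicate block gave 22 higher and 2 lower and changed no call among the 30 genes. Same-numbered libraries had correlations of their deviations from the group means of 0.0255, -0.0568 and -0.096, with the own number highest only for replicate 1, so the numbers were not taken to pair the samples. Depth limits the 9 genes that were not tested, which had 8 counts or fewer in every library.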
